A study of Mus musculus with 6 samples.

Results

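The genes described here are the chemokines and their receptors, measured in the liver of fat-fed male mice of the substrains Balb/c and Balb/cBy. Members were all genes whose symbol begins with Ccl, Ccr, Cxcl, Cxcr, Cx3cl, Cx3cr, Xcl or Xcr followed by a digit, as the only gene symbol of a probe set, with the brightest probe set taken per gene. This gave 52 genes out of 22180, of which 34 are ligands and 18 are receptors, measured by 53 probe sets. Another 33 probe sets carry a chemokine symbol together with other symbols and were not assigned to a gene.

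The series holds 6 arrays of total liver RNA, 3 from Balb/c and 3 from Balb/cBy mice, labelled as biological replicates. Every mouse was male and caged singly. Feeding with a high-fat diet, in which fat supplied 58% of the energy, began when the mice were 8 weeks old and went on for 12 weeks, until the liver was collected at 20 weeks. Diet, sex, age and housing were thus shared by both groups, and no mice on another diet were analysed here. Balb/cBy is known to lack a working Acads gene, for an enzyme of short-chain fatty acid oxidation, and like any pair of substrains the groups may differ at further loci, so that the comparison is one of substrains and not of a single allele.

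Chemokines are small secreted proteins that bind receptors coupled to G proteins on leukocytes and direct where those cells go. In the liver they are made by hepatocytes, Kupffer cells, endothelial cells and stellate cells, and they draw monocytes, neutrophils and lymphocytes into the tissue. The family is known for its part in the inflammation of fatty liver, with Ccl2 and its receptor Ccr2 bringing in monocytes and the Cxcl9 to Cxcl11 ligands bringing in T cells that carry Cxcr3.

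Values are log2 signals per probe set, so that a difference of 1 is a doubling of signal. The array medians lay between 7.66 and 7.74, and any 2 arrays correlated at 0.972 to 0.988 across probe sets. All 6 hepatocyte markers examined, among them Alb for serum albumin, were above the median on every array, and their mean deviation per array lay between -0.028 and 0.029. The number of arrays, 3 a substrain, limits the precision. Brightness also depends on the probes of a set, so that levels are described against the array and are not ranked between genes.

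Expression in fat-fed liver was described first, with a gene counted as expressed where it lay above the median of all probe sets on each of the 6 arrays. Of the 52 chemokine genes 30 met this rule (57.7%), 22 ligands and 8 receptors, beside 55.9% of all genes, a share near that of genes in general. A further 18 were below the median on all arrays, and 4 were above on some of them (Ccl2 and Ccl3 on 3 arrays each, Ccr3 on 2 and Cxcr4 on 5). Of the 30 expressed genes, 13 had a mean of more than 1 above the median and 9 lay within 0.5 of it. Just inside the limit were Ccr10, Cxcr1, Ccl22 and Cxcr5, whose lowest arrays stood at 0.011, 0.012, 0.018 and 0.061 relative to the median. Just outside were Cxcr4, at -0.012 on its lowest array, and Ccl20, at -0.063 on its highest. Above the 75th percentile on every array were 8 genes, the ligands Ccl5, Ccl9, Cxcl2, Cxcl9, Cxcl12 and Cxcl16 and the receptors Ccr7 and Cx3cr1. The share of all genes above that percentile is not given here, so this count describes the members alone.

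**Figure D1:**
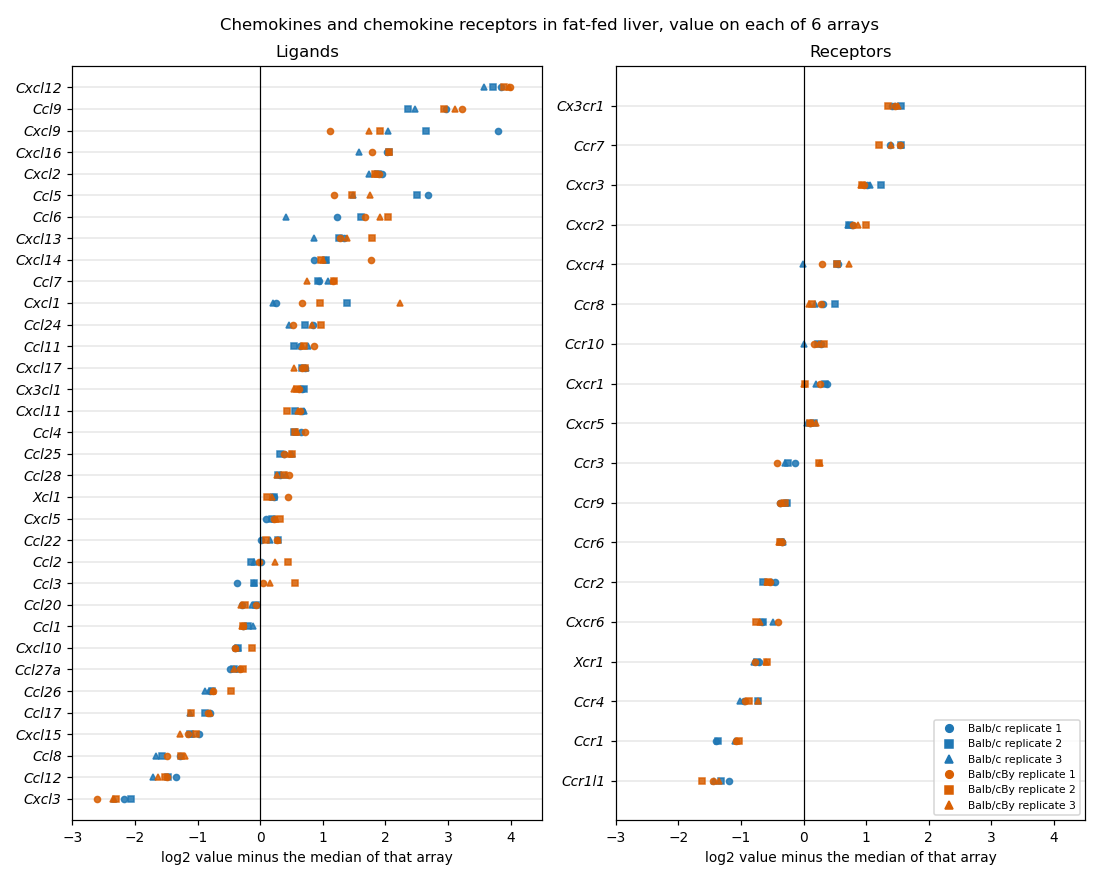
Level of each chemokine and receptor gene relative to the median of its array (log2, 0 is the array median), with 1 point per array, for 3 Balb/c and 3 Balb/cBy arrays. The 30 genes with all 6 points above 0 are those counted as expressed, and 18 genes have all points below 0.

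Balb/cBy was then compared with Balb/c. No chemokine or receptor gene passed the test (0 of 52 with limma at an adjusted p of 0.05, all with an adjusted p of 0.999), and neither did any of the 22180 genes (0.00%). The widest differences were those of Cxcl9 (-1.25) and Ccl5 (-0.78), with lower values in Balb/cBy, and of Ccl6 (0.77), Cxcl1 (0.65), Ccl9 (0.47) and Ccl3 (0.43), with higher values there. An unadjusted p under 0.05 was found for 6 of the 52 (11.5%), beside 3.76% of all genes. These were 4 higher in Balb/cBy (Ccl9, Ccl3, Ccl6 and Ccl2), beside 2.59% of all genes, and 2 lower (Cxcl9 and Ccl5), beside 1.16%. Without Balb/cBy replicate 2 there were 2 such genes, beside 1.94% of all genes, and without Balb/c replicate 1 there were 3, beside 3.93%. An ordinary test without moderation of the variance gave an unadjusted p under 0.05 for 0 of the 52, beside 3.26% of all genes.

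The groups did not overlap for 7 of the 52 genes (13.5%), beside 7.83% of all genes. Higher in every Balb/cBy array were 5 (Ccl3, Ccl6, Ccl2, Cxcl12 and Cxcr2), beside 4.32% of all genes, and lower were 2 (Cxcl9 and Cxcl3), beside 3.51%. With 1 array left out the count ran from 9 without Balb/cBy replicate 2, beside 12.9% of all genes, to 23 without Balb/cBy replicate 1, beside 26.9%, smaller groups being less likely to overlap. Differences above 0 were found for 31 of the 52 (59.6%), beside 49.1% of all genes. Without Balb/cBy replicate 1, 23 of the 52 were above 0, beside 46.7% of all genes. The median difference was 0.025, beside -0.0028 over all genes. It was -0.047 without Balb/cBy replicate 1, beside -0.012 over all genes in that setting. With all 6 arrays the whole family spanned -1.25 to 0.77. For 40 of the 52 genes the 95% interval of the difference lay wholly within 0.5 of 0, and for 16 within 0.3. Larger differences than these were not in the intervals of those genes. The share of all genes with such intervals is not given here, so these counts describe the members alone. The median SE was 0.112 for the members, beside 0.116 over all genes.

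**Figure D2:**
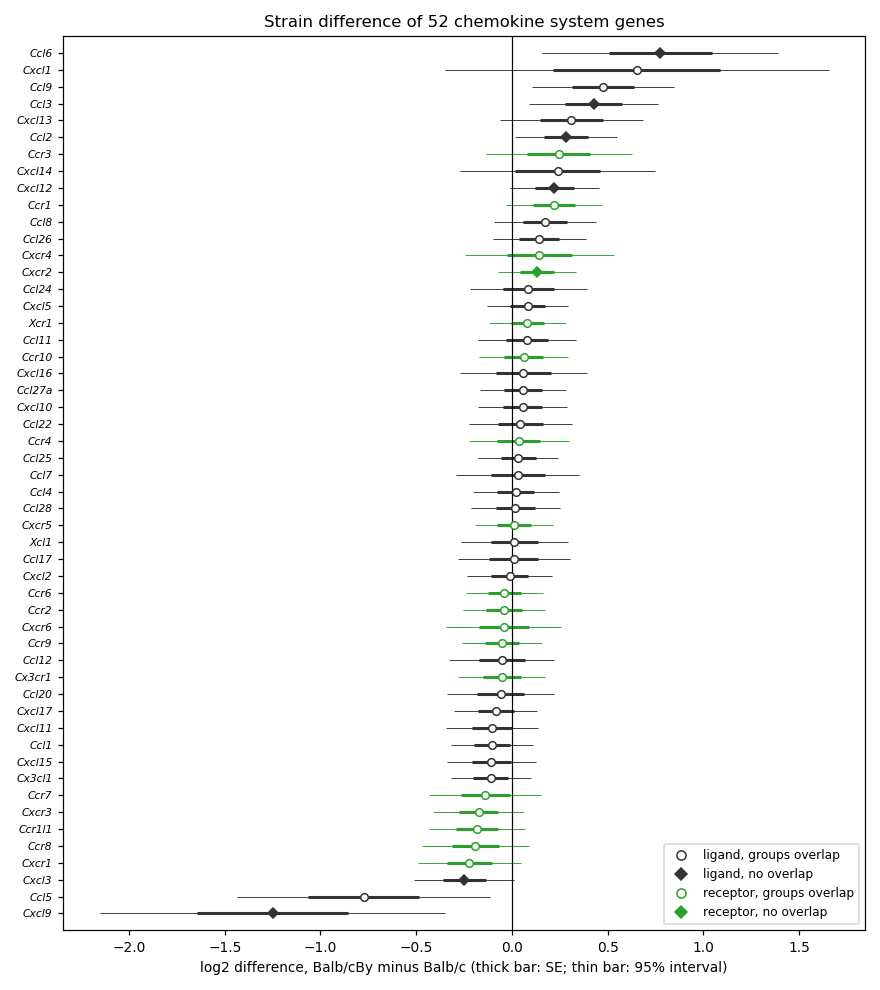
Difference of each chemokine and receptor gene between the substrains (Balb/cBy minus Balb/c, log2, point) with its 95% interval (bar), from 3 arrays a group. Cxcl9 lies lowest at -1.25 and Ccl6 highest at 0.77, and no gene passes the threshold after adjustment over all genes.

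The interferon-inducible ligands Cxcl9, Cxcl10 and Cxcl11 and their receptor Cxcr3, carried by activated T cells and natural killer (NK) cells, had unlike values. Cxcl9 had the second lowest difference of all 22180 genes, while Cxcl10 and Cxcl11 stood at 0.057 and -0.10. By limma unadjusted p Cxcl9 ranked only 193, and its SD within groups was larger than that of 99.5% of all genes. Of the 4 genes 1 had a difference above 0, and the median was -0.14. Cxcl9 read 11.47, 10.38 and 9.75 on the Balb/c arrays and 8.85, 9.59 and 9.41 on the Balb/cBy arrays. All 3 Balb/c arrays were above all 3 Balb/cBy arrays, and Balb/c replicate 1 stood clear of the rest. Mean levels (± SD, n = 3 each) were 10.53 ± 0.87 in Balb/c against 9.28 ± 0.38 in Balb/cBy. The difference was -1.25 (SE 0.39), with a 95% interval of -2.15 to -0.35 and a ratio of 2.38-fold between the higher and the lower mean. The limma unadjusted p was 0.0126, and the exact permutation test (two-sided) gave 0.1, the smallest p that 3 arrays against 3 allow. The difference was -0.78 when Balb/c replicate 1 was left out and -1.64 when Balb/c replicate 3 was.

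Cxcl10 was below the array median on all 6 arrays. Cxcl11 read 8.35, 8.29 and 8.42 on the Balb/c arrays and 8.38, 8.09 and 8.27 on the Balb/cBy arrays, with overlapping groups and a difference of -0.10 (SE 0.10) that was -0.027 without Balb/cBy replicate 2. Cxcr3 read 8.69, 8.96 and 8.78 on the Balb/c arrays and 8.71, 8.61 and 8.58 on the Balb/cBy arrays. Its lowest Balb/c array lay below the highest Balb/cBy array, and the difference was -0.17 (SE 0.10), with a limma unadjusted p of 0.131, and it was -0.097 without Balb/c replicate 2. Ifng, the cytokine that induces these ligands, had a difference of -0.074 (SE 0.097) and Irf1, a factor downstream of it, one of 0.016 (SE 0.12).

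Because Cxcl9 and Cxcl10 lie near each other on chromosome 5, are both induced by interferon and had unlike values here, their promoters are shown. The windows come from RefSeq (GRCm38.p6), run from 250 bases before to 50 after the gene start, and are written 5′ to 3′ along the gene. Capitals mark matches, on either strand, to the interferon-stimulated response element (ISRE, GAAANNGAA), the gamma-activated site (GAS, TTCNNNGAA), the AP-1 site (TGANTCA) and the NF-kB consensus. Cxcl9 lies at chr5:92328030-92328329 and Cxcl10 at chr5:92348840-92349139, both on the minus strand.

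Cxcl9: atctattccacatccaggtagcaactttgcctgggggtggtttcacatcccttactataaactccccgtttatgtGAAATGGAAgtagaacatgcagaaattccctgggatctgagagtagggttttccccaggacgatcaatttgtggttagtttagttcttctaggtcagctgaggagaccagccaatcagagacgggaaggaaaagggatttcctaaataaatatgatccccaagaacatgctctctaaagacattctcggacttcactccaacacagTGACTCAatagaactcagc

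Cxcl10: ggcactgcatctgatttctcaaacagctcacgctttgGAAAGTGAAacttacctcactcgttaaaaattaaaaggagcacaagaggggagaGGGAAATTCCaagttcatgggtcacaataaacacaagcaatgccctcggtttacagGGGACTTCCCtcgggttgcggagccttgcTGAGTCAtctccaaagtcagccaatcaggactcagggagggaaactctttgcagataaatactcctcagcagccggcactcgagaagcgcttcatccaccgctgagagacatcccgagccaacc

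The Cxcl9 window holds an ISRE match at -175 to -167 from the start (the start is 1 and the base before it -1) and an AP-1 match at 32 to 38. The Cxcl10 window holds an ISRE match at -213 to -205, NF-kB matches at -159 to -150 and -103 to -94, and an AP-1 match at -74 to -68. Of the 38 chemokine genes with a promoter in the table, 7 held an ISRE match, 4 a GAS match, 8 an AP-1 match and 9 an NF-kB match. Among all 32851 windows of the table, 8.56% held an ISRE match, 8.30% a GAS match, 7.81% an AP-1 match and 4.51% an NF-kB match. Some genes have several windows, and of the 42 windows of chemokine genes 7, 4, 8 and 9 held a match, in the same order. No match to one motif overlaps a match to another in the windows printed, and a match describes letters and not a bound site.

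Ligands of Ccr1 and Ccr3, which act on monocytes, macrophages, eosinophils and T cells, held 4 of the 6 lowest unadjusted p of the family, in both directions. Of the 8 ligands 7 had a difference above 0, with a median of 0.11 over all 8, and Ccl5 stood against the others. Ccl5, made by T cells, NK cells and macrophages, read 10.36, 10.24 and 9.20 on the Balb/c arrays and 8.92, 9.14 and 9.41 on the Balb/cBy arrays. Balb/c replicates 1 and 2 were above all Balb/cBy arrays, while Balb/c replicate 3 lay among them, so that the groups overlapped. Mean levels (± SD, n = 3 each) were 9.93 ± 0.64 in Balb/c against 9.16 ± 0.25 in Balb/cBy. The SD of Ccl5 within groups was larger than that of 98.5% of all genes. The difference was -0.78 (SE 0.29), with a 95% interval of -1.44 to -0.11 and a ratio of 1.71-fold between the higher and the lower mean, and a limma unadjusted p of 0.0271. The difference was -0.56 when Balb/c replicate 1 was left out and -1.14 when Balb/c replicate 3 was.

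Markers of lymphocytes were read beside Cxcl9 and Ccl5. All 5 T cell markers had differences below 0 (median -0.13), and the overlapping ranges of their summed signal (log2) were 9.93 to 10.21 in Balb/c against 9.86 to 9.97 in Balb/cBy. All 3 B cell markers were below 0 without overlap of the groups, with sums of 8.98 to 9.13 in Balb/c against 8.73 to 8.87 in Balb/cBy. Of the 3 NK cell markers 2 were below 0, and the overlapping sums were 8.84 to 9.06 in Balb/c against 8.88 to 8.999 in Balb/cBy. Cd3d, Cd3g, Cd8a, Cd79a, Ms4a1, Klrb1c and Eomes of these lists were below the array median on every array. The part of these cells in the chemokine values was not tested. In whole liver RNA, fewer cells of a type and less RNA per cell cannot be told apart.

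Ccl6 and Ccl9, CC chemokines of mouse macrophages and myeloid cells, and Ccl3, an early inflammatory signal of macrophages, had higher means in Balb/cBy. Ccl6 read 8.90, 9.34 and 8.13 on the Balb/c arrays and 9.41, 9.71 and 9.58 on the Balb/cBy arrays. The Balb/cBy arrays lay close together and above all Balb/c arrays, of which replicate 3 was far the lowest. Mean levels (± SD, n = 3 each) were 8.79 ± 0.62 in Balb/c against 9.57 ± 0.15 in Balb/cBy. The SD of Ccl6 within groups was larger than that of 98.2% of all genes. The difference was 0.77 (SE 0.27), with a 95% interval of 0.16 to 1.39 and a ratio of 1.71-fold between the higher and the lower mean, a limma unadjusted p of 0.02 and an exact permutation p of 0.1. Left-out arrays moved it between 0.44 (Balb/c replicate 3) and 1.05 (Balb/c replicate 2). Ccl9 read 10.65, 10.09 and 10.18 on the Balb/c arrays and 10.96, 10.61 and 10.77 on the Balb/cBy arrays. Balb/c replicate 1 reached above Balb/cBy replicate 2, so that the groups overlapped, and the difference was 0.47 (SE 0.16) with a 95% interval of 0.10 to 0.85 and a limma unadjusted p of 0.0184. Ccl3 read 7.31, 7.63 and 7.61 on the Balb/c arrays and 7.79, 8.23 and 7.82 on the Balb/cBy arrays. It was below the array median in Balb/c and above it in Balb/cBy, without overlap, with a difference of 0.43 (SE 0.15), a 95% interval of 0.088 to 0.77 and a limma unadjusted p of 0.0196.

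Of 10 Kupffer cell and macrophage markers 6 had differences above 0 and 4 below, with a median of 0.098 and overlapping sums of 12.99 to 13.85 in Balb/c against 13.40 to 13.78 in Balb/cBy. Of the list, Marco was above the array median on only 3 arrays and the other 9 were above it on all 6. Balb/c replicate 3 had the lowest macrophage marker level of the 6 arrays (mean deviation -0.50) and also the lowest Ccl6. Ccl9 was lowest on Balb/c replicate 2, where the marker level was highest (mean deviation 0.30). Ccl3 was lowest on Balb/c replicate 1 (mean deviation of the markers 0.11). The part of macrophages in the ligand values was not tested.

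**Figure D3:**
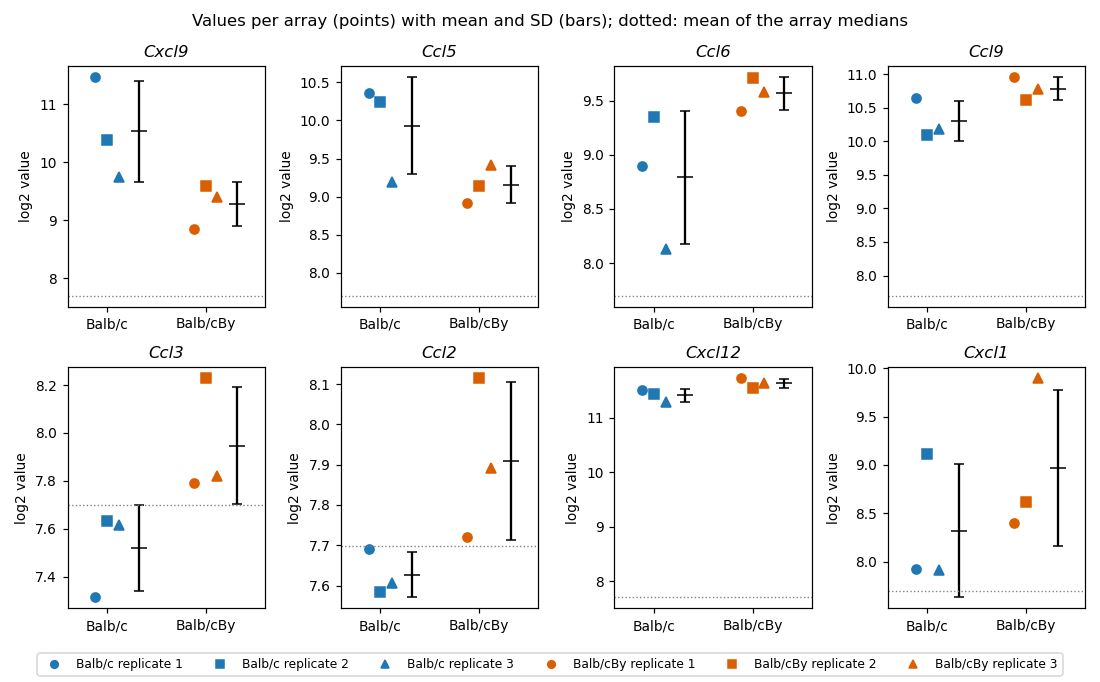
Log2 value on each array (points) of 8 ligands, with the mean and SD over 3 arrays (bars) and the mean of the array medians (dotted line); each panel has its own axis, which does not start at 0. For Cxcl9, Ccl6, Ccl3, Ccl2 and Cxcl12 no value of one substrain lies within the range of the other.

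Ccl9, Ccl6, Ccl3 and Ccl4 follow Ccl5 in a run of neighbouring members on chromosome 11, in RefSeq gene order, with differences of -0.78 (Ccl5), 0.47 (Ccl9), 0.77 (Ccl6), 0.43 (Ccl3) and 0.020 (Ccl4). The 3 genes in its middle had an unadjusted p under 0.05 with higher values in Balb/cBy, and their promoters are shown to compare them. They lie on the minus strand of GRCm38.p6, Ccl9 at chr11:83578587-83578886, Ccl6 at chr11:83593038-83593337 and Ccl3 at chr11:83649329-83649628.

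Ccl9: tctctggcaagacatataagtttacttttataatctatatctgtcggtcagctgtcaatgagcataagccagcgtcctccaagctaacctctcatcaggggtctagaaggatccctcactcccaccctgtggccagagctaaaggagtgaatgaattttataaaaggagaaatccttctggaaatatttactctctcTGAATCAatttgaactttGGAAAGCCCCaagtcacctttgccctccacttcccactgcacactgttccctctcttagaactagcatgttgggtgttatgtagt

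Ccl6: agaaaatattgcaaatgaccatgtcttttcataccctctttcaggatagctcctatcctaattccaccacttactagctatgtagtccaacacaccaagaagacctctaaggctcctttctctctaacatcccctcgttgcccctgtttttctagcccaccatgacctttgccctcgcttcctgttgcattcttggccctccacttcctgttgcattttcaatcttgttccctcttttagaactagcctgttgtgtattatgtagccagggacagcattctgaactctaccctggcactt

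Ccl3: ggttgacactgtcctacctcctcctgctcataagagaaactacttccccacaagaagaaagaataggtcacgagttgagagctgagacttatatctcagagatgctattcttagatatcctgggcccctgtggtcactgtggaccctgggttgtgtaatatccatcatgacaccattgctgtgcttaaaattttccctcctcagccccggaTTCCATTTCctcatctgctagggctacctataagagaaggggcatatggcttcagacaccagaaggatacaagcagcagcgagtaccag

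No motif is matched in more than 1 of the 3 windows. Ccl9 has an AP-1 match at -53 to -47 and an NF-kB match at -35 to -26, Ccl3 has an ISRE match at -39 to -31, and Ccl6 has none of the 4 motifs in its window, which says nothing of the factors themselves.

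The remaining ligands of this group had small differences. Ccl4, a close relative of Ccl3, read 8.32, 8.27 and 8.28 in Balb/c and 8.46, 8.23 and 8.25 in Balb/cBy, a difference of 0.020 (SE 0.098). Ccl11, an eosinophil attractant, read 8.31, 8.27 and 8.48 in Balb/c and 8.59, 8.37 and 8.33 in Balb/cBy, a difference of 0.080 (SE 0.11). Ccl24, another ligand of Ccr3, read 8.52, 8.45 and 8.17 in Balb/c and 8.27, 8.63 and 8.49 in Balb/cBy, a difference of 0.086 (SE 0.13). The groups overlapped for all 3 of these, and Ccl26 was below the array median. The receptors Ccr1, Ccr3 and Ccr1l1 had differences of 0.22, 0.24 and -0.18, none of which passed. Over the arrays left out in turn these ran from 0.15 to 0.32, from 0.14 (Balb/cBy replicate 3 out) to 0.45 (Balb/cBy replicate 1 out) and from -0.24 to -0.097 (Balb/cBy replicate 2 out). Ccr1 and Ccr1l1 were below the array median on all arrays and Ccr3 on 4.

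Among the monocyte ligands Ccl2, Ccl7, Ccl8 and Ccl12, listed here with the receptor Ccr2, Ccl2 had the lowest p. Ccl2 read 7.69, 7.58 and 7.61 on the Balb/c arrays and 7.72, 8.11 and 7.89 on the Balb/cBy arrays. The Balb/cBy arrays were above the Balb/c arrays, narrowly so for replicate 1, and the difference was 0.28 (SE 0.12), 95% interval 0.014 to 0.55, with a limma unadjusted p of 0.0412. It was 0.18 when Balb/cBy replicate 2 was left out. Ccl7 read 8.62, 8.66 and 8.80 in Balb/c and 8.90, 8.85 and 8.42 in Balb/cBy, with overlap and a difference of 0.031 (SE 0.14). Ccl8, Ccl12 and Ccr2 were below the array median on all 6 arrays, and Ccr2 had a difference of -0.041 (SE 0.092) with a 95% interval of -0.25 to 0.17. All 3 monocyte markers had differences above 0 (median 0.14), with sums of 9.27 to 9.35 in Balb/c against 9.36 to 9.82 in Balb/cBy that did not overlap, and Chil3 among them was below the array median throughout. Their part in Ccl2 was not tested.

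Neutrophil attractants are the CXC ligands with an ELR motif (Cxcl1, Cxcl2, Cxcl3, Cxcl5 and Cxcl15) and the receptors Cxcr1 and Cxcr2. Of these 7 genes 3 had a difference above 0. Cxcl1, which hepatocytes make in the acute phase, read 7.93, 9.11 and 7.91 on the Balb/c arrays and 8.40, 8.62 and 9.90 on the Balb/cBy arrays. Single arrays of both groups were high, Balb/cBy replicate 3 most of all, and its SD within groups was larger than that of 99.6% of all genes. The difference of 0.65 (SE 0.44) had a 95% interval of -0.35 to 1.66 and a limma unadjusted p of 0.172, and it was 0.19 without Balb/cBy replicate 3. Cxcl2, made by macrophages and neutrophils, read 9.62, 9.61 and 9.45 in Balb/c and 9.64, 9.51 and 9.50 in Balb/cBy, with a difference of -0.012 (SE 0.097) and a 95% interval of -0.23 to 0.21, and it was 0.0049 with the arrays recentred on their medians. Cxcl5 read 7.76, 7.92 and 7.93 in Balb/c and 7.97, 7.98 and 7.92 in Balb/cBy, with a difference of 0.083 (SE 0.092). Groups overlapped for Cxcl1, Cxcl2 and Cxcl5.

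The 2 receptors of this group differed in sign. Cxcr1 read 8.05, 8.08 and 7.92 in Balb/c and 8.01, 7.698 and 7.67 in Balb/cBy, with overlapping groups and a difference of -0.22 (SE 0.12). Cxcr2, the main neutrophil receptor of mice, read 8.46, 8.46 and 8.43 in Balb/c and 8.53, 8.67 and 8.53 in Balb/cBy, without overlap, and its difference of 0.13 (SE 0.089) had a limma unadjusted p of 0.182 and was 0.082 without Balb/cBy replicate 2. Cxcl3 was below the array median on every array and had no overlap at a difference of -0.25, and Cxcl15 was below the median as well. Of 7 neutrophil markers 5 had differences above 0 (median 0.071), with overlapping sums of 10.37 to 10.61 in Balb/c against 10.44 to 10.70 in Balb/cBy, and S100a8, Ly6g, Retnlg and Mpo were below the array median on every array. Their part in Cxcr2 was not tested.

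Cxcl1, Cxcl2 and Cxcl3 sit in 1 cluster on chromosome 5, and their NF-kB matches are shown since they share the same run of letters while their differences (0.65, -0.012 and -0.25) are unlike. Each line holds the 60 bases from 110 to 51 before the start, on the plus strand of GRCm38.p6, at chr5:90891135-90891194, chr5:90903789-90903848 and chr5:90785991-90786050, with the matches in capitals, where matches on both strands run into each other.

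Cxcl1: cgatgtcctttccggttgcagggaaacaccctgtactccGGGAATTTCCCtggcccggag

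Cxcl2: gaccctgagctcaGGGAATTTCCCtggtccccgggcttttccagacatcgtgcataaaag

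Cxcl3: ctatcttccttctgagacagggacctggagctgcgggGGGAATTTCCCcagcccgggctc

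Homeostatic CXC chemokines, which place cells in tissues without inflammation, had 6 of 8 genes above 0 with a median of 0.10. Cxcl12, a signal from stromal and endothelial cells that keeps cells in place through Cxcr4, read 11.52, 11.45 and 11.29 on the Balb/c arrays and 11.73, 11.56 and 11.64 on the Balb/cBy arrays. The Balb/cBy arrays were above all Balb/c arrays, the gap being small, and the difference was 0.22 (SE 0.10), or 1.17-fold, with a limma unadjusted p of 0.0585. All 6 stellate cell markers had differences above 0 (median 0.20), with overlapping sums of 12.69 to 13.14 in Balb/c against 12.99 to 13.39 in Balb/cBy, and their part in Cxcl12 was not tested. Cxcl13, which attracts B cells through Cxcr5, read 9.02, 8.99 and 8.58 in Balb/c and 9.01, 9.45 and 9.05 in Balb/cBy, a difference of 0.31 (SE 0.16) with a limma unadjusted p of 0.0907. Its groups overlapped, and the difference was 0.17 without Balb/c replicate 3. Cxcl14 read 8.54, 8.78 and 8.77 in Balb/c and 9.50, 8.64 and 8.67 in Balb/cBy, a difference of 0.24 (SE 0.22) that was -0.045 without Balb/cBy replicate 1, the single high array.

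Cxcl16, a transmembrane chemokine for cells with Cxcr6, read 9.71, 9.79 and 9.29 in Balb/c and 9.53, 9.72 and 9.72 in Balb/cBy, a difference of 0.061 (SE 0.14) that was -0.0067 with the quantile normalization repeated. Balb/c replicate 3 was the lowest array for Cxcl16, as for Ccl6 and Cxcr4. Cxcl17 read 8.39, 8.40 and 8.45 in Balb/c and 8.40, 8.38 and 8.20 in Balb/cBy, a difference of -0.084 (SE 0.094). Cxcr5, the B cell receptor for Cxcl13, read 7.78, 7.89 and 7.77 in Balb/c and 7.85, 7.77 and 7.86 in Balb/cBy, a difference of 0.013 (SE 0.089). The groups overlapped for Cxcl14, Cxcl16, Cxcl17 and Cxcr5. Cxcr4 had a difference of 0.14 (SE 0.17), and Cxcr6 was below the median on all 6 arrays.

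CC ligands and receptors that guide lymphocytes and dendritic cells stood close to 0. All 13 had differences between -0.19 and 0.061, 7 of them above 0, and none had groups without overlap. Ccl22, which draws T cells through Ccr4, read 7.69, 8.02 and 7.88 in Balb/c and 8.01, 7.76 and 7.95 in Balb/cBy, a difference of 0.044 (SE 0.12). Ccl25, the ligand of the gut-homing receptor Ccr9, read 8.06, 8.05 and 8.22 in Balb/c and 8.11, 8.18 and 8.14 in Balb/cBy, a difference of 0.033 (SE 0.091). Ccl28, an epithelial ligand of Ccr10, read 7.99, 8.01 and 8.13 in Balb/c and 8.20, 8.05 and 7.94 in Balb/cBy, a difference of 0.019 (SE 0.10). Their arrays overlapped between substrains in each case.

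Ccr7, which leads dendritic cells and naive T cells to lymph nodes, read 9.07, 9.29 and 9.27 in Balb/c and 9.28, 8.87 and 9.06 in Balb/cBy, a difference of -0.14 (SE 0.13) that ran from -0.24 to -0.040 over left-out arrays, at the ends Balb/cBy replicates 1 and 2. Ccr8 of regulatory T cells read 7.99, 8.23 and 7.90 in Balb/c and 8.01, 7.80 and 7.74 in Balb/cBy, a difference of -0.19 (SE 0.12) that was -0.095 without Balb/c replicate 2. Ccr10 read 7.95, 7.97 and 7.72 in Balb/c and 7.91, 8.0003 and 7.91 in Balb/cBy, a difference of 0.061 (SE 0.10). Their groups overlapped too, and the remaining 7 (Ccl1, Ccl17, Ccl20, Ccl27a, Ccr4, Ccr6 and Ccr9) were below the median on every array. Ccl27a is uncertain, since 2 probe sets with several symbols hold the same 6 values as its own.

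In the small CX3C and XC groups the values were close. Cx3cl1, a membrane-bound ligand of endothelium and neurons, read 8.35, 8.44 and 8.36 in Balb/c and 8.36, 8.26 and 8.20 in Balb/cBy, a difference of -0.11 (SE 0.091). Its receptor Cx3cr1, found on monocytes and resident macrophages, read 9.09, 9.28 and 9.17 in Balb/c and 9.20, 9.02 and 9.17 in Balb/cBy, a difference of -0.054 (SE 0.099). Xcl1, a T and NK cell ligand for the dendritic cell receptor Xcr1, read 7.90, 7.96 and 7.92 in Balb/c and 8.19, 7.77 and 7.85 in Balb/cBy, a difference of 0.013 (SE 0.12). No pair of groups was separated here, and Xcr1 was below the median on every array.

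Among ligands 23 of 34 had a difference above 0 (median 0.038), and among receptors 8 of 18 (median -0.040), with receptor differences between -0.22 and 0.24. All 6 genes with an unadjusted p under 0.05 were ligands. The difference between ligands and receptors was not tested.

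**Figure D4:**
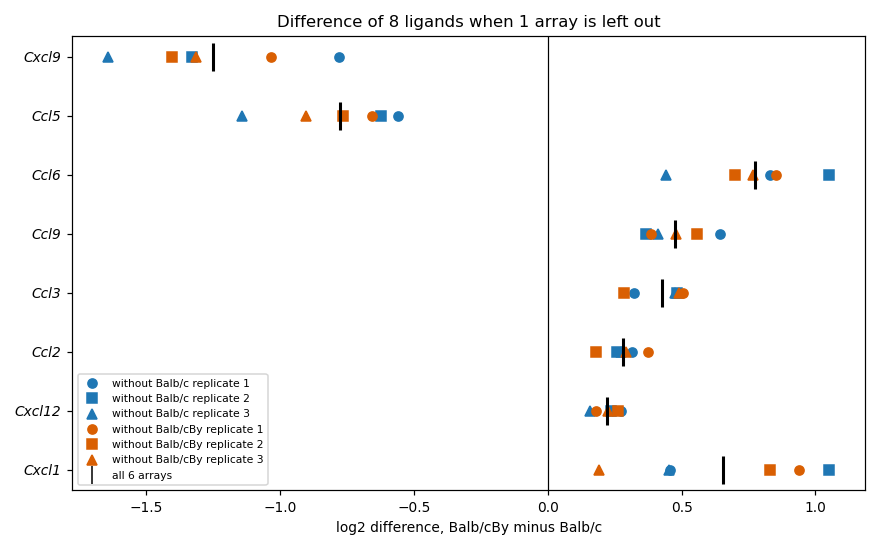
Log2 difference (Balb/cBy minus Balb/c) of 8 ligands with all 6 arrays (black bar) and with each array left out in turn (coloured marks). Each of the 8 keeps its sign, and Cxcl1 runs from 0.19 without Balb/cBy replicate 3 to 1.05 without Balb/c replicate 2. For Cxcl9, Ccl6, Ccl3, Ccl2 and Cxcl12, whose groups do not overlap, leaving out 1 array cannot turn the sign. The 8 include the ligands with the widest differences of the family.

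Other genes of the chemokine system, from a list of 40, were measured for 36, and none passed. Of these, 18 had a difference above 0 and 18 below (median -0.0030), and 29 (80.6%) were above the array median on all arrays, beside 55.9% of all genes. An unadjusted p under 0.05 was found for 1 (2.78%), a share near the 3.76% of all genes. It was Rela, a subunit of NF-kB, at 0.30 (SE 0.094), with a limma unadjusted p of 0.0122. Platelet chemokine Pf4 stood at 0.22 (SE 0.14) and Ppbp at -0.088 (SE 0.24). The atypical receptors Ackr1, Ackr2 and Ackr3, which take up chemokines without G protein signalling, stood at 0.060, -0.085 and -0.098. Among other inducers of chemokines Tnf stood at -0.011 (SE 0.088) and Il6 at 0.087 (SE 0.12), while Il1b had a wide error at 0.14 (SE 0.46). Dpp4, a protease that trims chemokines, had the lowest value of the list at -0.25 (SE 0.23).

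**Figure D5:**
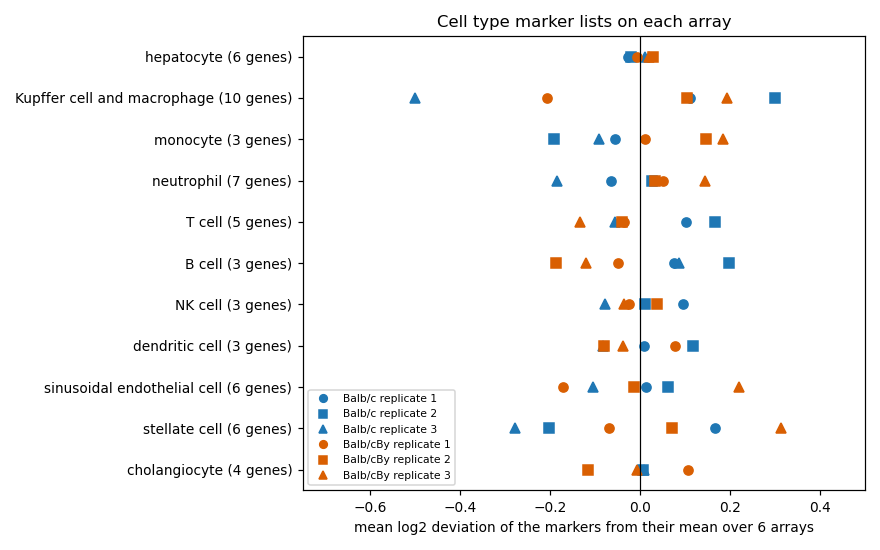
Mean log2 deviation from each gene's mean over the 6 arrays, by cell type marker list and array, with 1 point per array. Hepatocyte markers stay within 0.03 of 0, B cell markers are lower on every Balb/cBy array, and macrophage markers are lowest on Balb/c replicate 3.

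With 3 arrays a group, the limma p-values rest on the spread between these arrays, moderated over all genes. The labels say no more of how the mice were bred or sourced.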

How the data were processed

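Log2 values per probe set were deposited by the authors and made with RMA, per the submitters' processing notes. RMA corrects background, normalizes quantiles and summarises probes. Not given in the sources used here are its version, the array annotation and the build. Gene symbols are those of GEO's platform annotation. Of 41345 probe sets 23521 had 1 symbol, 1814 several, and 16010 were unnamed. For 1082 genes with several probe sets the brightest was used, giving 22180 genes. No filter was applied.

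The difference Balb/cBy minus Balb/c was tested in R 4.3.3 with limma 3.58.1 (lmFit, eBayes). P-values were adjusted over the 22180 genes by Benjamini-Hochberg and called under 0.05. Errors are moderated standard errors (SE). The scripts were tested on simulated data. Members and lists were chosen with earlier results of these data known. Values in every array are given for members above the array median on all arrays, the 6 with the lowest p, and those without overlap and a difference of at least 0.3. The labels call the arrays biological replicates. They do not say that the replicate number pairs mice, so the number was not used as a block. Same-numbered arrays of both groups did not deviate together. Promoters and gene order came from RefSeq (GRCm38.p6), where 38 and 51 of the 52 genes were found.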

Additional observations from a re-analysis of the deposited data

How the results depend on the processing

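Counts of 0 members past the threshold held in every alternative run, including an adjusted p of 0.1, array weights and each array left out. Of all genes 12 passed with array weights, 2 when Balb/c replicate 3 was left out and 3 when Balb/cBy replicate 1 was, with 0 members among them. The other counts moved in some. With array weights 11 members had an unadjusted p under 0.05, beside 7.94% of all genes. Leaving out 1 array gave 2 to 6 such members, beside 1.94% to 8.24% of all genes. These were 2 without Balb/cBy replicate 2 (1.94% of all genes), 3 when Balb/c replicate 1 was left out (3.93%) and 6 when Balb/cBy replicate 1 was (8.24%). It gave 23 (without Balb/cBy replicate 1) to 33 members above 0 (without Balb/c replicate 2), beside 46.7% and 51.6% of all genes. The member median was -0.047 and 0.032 in these settings, beside -0.012 and 0.0050 over all genes. From 9 to 23 members were without overlap. That last count grows with fewer arrays by construction, and 23 members (44.2%), without Balb/cBy replicate 1, stand beside 26.9% of all genes. Above the 75th percentile were 8 members in place of 30. Taking the median of the genes with 1 symbol left 20, and leaving out arrays 30 to 31. The share of all genes under these other limits is not given, so the counts of 8 and 20 are not read against genes in general. Replicate numbers did not pair the arrays (correlations of deviations -0.32, -0.20 and -0.23, and 0 of 6 arrays correlated best with their own number). With the replicate number as a block the differences were the same, 0 members passed and 5 had an unadjusted p under 0.05, beside 2.30% of all genes.

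For the 7 members without overlap of the groups, the sign could not turn when 1 array was left out. Single signs held without each array for 32 members, these included, and turned for 20, none with a difference over 0.24. Ranges of the latter over the arrays left out were Ccl11 (-0.0020 to 0.14), Ccl12 (-0.15 to 0.018), Ccl17 (-0.078 to 0.12), Ccl20 (-0.15 to 0.0026), Ccl22 (-0.040 to 0.12), Ccl24 (-0.017 to 0.18), Ccl28 (-0.049 to 0.082), Ccl4 (-0.053 to 0.060), Ccl7 (-0.057 to 0.18), Ccr10 (-0.018 to 0.10), Ccr4 (-0.021 to 0.14), Cx3cr1 (-0.098 to 0.0014), Cxcl10 (-0.019 to 0.11), Cxcl14 (-0.045 to 0.39), Cxcl16 (-0.092 to 0.16), Cxcl2 (-0.068 to 0.019), Cxcr4 (-0.041 to 0.24), Cxcr5 (-0.0084 to 0.051), Cxcr6 (-0.17 to 0.036), Xcl1 (-0.11 to 0.096). Of small differences that kept their sign, Ccl25 ran from 0.0029 (without Balb/c replicate 2) to 0.086 (without Balb/c replicate 3), Cxcl5 reached 0.029 (without Balb/c replicate 1), and Cxcl17, Cx3cl1 and Ccr2 reached -0.020, -0.074 and -0.014 (without Balb/cBy replicate 3). In other settings 8 turned: Cxcl2 to 0.0049 with recentred arrays, Cxcl16 to -0.0067 with quantile normalization repeated, Ccl27a to -0.017 with every probe set tested, and with array weights Ccl17 to -0.0083, Ccl28 to -0.028, Ccl4 to -0.036, Ccl7 to -0.090 and Xcl1 to -0.041. The cause was not tested. Filters on low values left 33 and 46 members to test. The labels give no scan date or batch to test, and signal over background was not analysed here.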

Other observations

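Probe sets that carry a chemokine symbol and other symbols were set aside above, and their values stand here alone. Of the 33, which hold 23 distinct sets of values, 13 include a Ccl19-type symbol, 9 a Ccl21-type and 11 a Ccl27-type. Ccl19-type and Ccl21-type ligands guide cells with Ccr7 in lymphoid tissue, and Ccl27-type ligands act on Ccr10. Differences ran from -0.10 to 0.18 for the Ccl19-type sets, of which 12 were above 0, from 0.0068 to 0.11 for the Ccl21-type sets, of which 9 were above 0, and from -0.18 to 0.075 for the Ccl27-type sets, of which 4 were above 0. Probe sets with identical values are each counted in these numbers, so that the counts of signs are not independent. No member of these sets passed (the lowest limma adjusted p was 0.999), and the copies of these genes share sequence.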
